A study of Mus musculus with 18 samples.

Results

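The genes of the cytosolic ribosomal proteins, the proteins that build both subunits of the ribosome, were measured in mouse embryos of 3 genotypes of Nkx2-5, also called Csx, a cardiac homeobox transcription factor. Members were the probe sets whose only annotated symbol starts with Rpl or Rps and a digit, or is Rplp0, Rplp1, Rplp2 or Rpsa, without the kinases of the Rps6k family and without pseudogenes. That gave 45 of the 6137 genes named by the annotation, with 59 of 13057 probe sets: 39 probe sets for 30 genes of the large subunit and 20 for 15 genes of the small subunit. The rule used names only, and the family was chosen with earlier results of these data known. Total RNA was from the middle segment of embryos, cut into 3 at embryonic day 9.5, that were homozygous mutant (null), heterozygous or wild type for the gene, and each genotype was read on 3 arrays of each of 2 array types, called a and b, which carry different probe sets. Nulls are numbered 2, 6 and 8 on type a (8a here) and 2, 6 and 9 on type b (9b), heterozygotes 3, 4 and 8, and wild types 1, 5 and 7, and whether 8a and 9b hold the same RNA is not given. The labels do not give the mutant allele, strain or somite stage, nor whether 1 or several embryos gave an array's RNA. A p-value here covers just the variation among these samples, and that may be of technical origin.

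Ribosomal proteins are needed in fixed proportion with ribosomal RNA, and growing embryonic tissue makes them in large amounts. Their messenger RNAs begin with a run of pyrimidines, the 5′ terminal oligopyrimidine tract, through which the mTOR kinase pathway and the protein Larp1 set how strongly they are translated. Shortage of single ribosomal proteins in mice and people stabilises p53 and gives tissue-specific defects, of which Diamond-Blackfan anaemia is the best known. Processed copies of these genes are scattered over the genome, so a probe set of this family can take up signal from related sequences.

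Of the 45 genes, 36 had an entry among the RefSeq promoter sequences (build GRCm38.p6). The windows below show 15 bases before the annotated start and 15 bases from it on, with the longest pyrimidine run of each window in capitals. They are examples from both subunits, of which Rpl7a and Rpl28 were chosen after the values were seen. Only windows holding CTTTC or a run of at least 8 pyrimidines were considered, so they do not show how common such runs are.
Rpl13a (chr7:45128731-45128760, minus strand): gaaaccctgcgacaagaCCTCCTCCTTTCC
Rpl28 (chr7:4792950-4792979, plus strand): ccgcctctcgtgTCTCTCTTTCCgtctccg
Rpl7a (chr2:26910792-26910821, plus strand): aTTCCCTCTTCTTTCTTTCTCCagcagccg
Rplp2 (chr7:141447636-141447665, plus strand): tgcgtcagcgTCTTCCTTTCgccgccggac
Rps26 (chr10:128626492-128626521, minus strand): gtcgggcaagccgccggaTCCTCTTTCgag
Rps18 (chr17:33955651-33955680, minus strand): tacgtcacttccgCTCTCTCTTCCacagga
A run of at least 8 pyrimidines (C or T) on the sense strand lay within 50 bases either side of the start in 30 of the 36 member genes (83.3%), against 39.3% of all 27025 genes in the table. It was present in 21 of 23 large subunit genes and 9 of 13 small subunit genes. The letters CTTTC, which can lie inside such a run, stood in the same stretch of 18 of 36 member genes (50.0%) and 14.6% of all genes. CCGGAA, the core bound by ETS family factors, stood on either strand of the stretch from 250 bases before to 50 after the start in 18 of 36 (50.0%) and 16.7% of all genes. AAGATGG, a form of the YY1 motif, stood there in 6 of 36 (16.7%) and 7.28% of all genes. These matches describe letters only.

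The deposited intensities are linear with background subtracted. Testing required signal above a floor of 375.1 on type a or 523.1 on type b, set at 2 noise SDs, on at least 3 of the 9 arrays of its type, and 50 of the 59 members for 39 genes passed, 48 of them on all 9 arrays. Tested were 21 large and 14 small subunit probe sets on type a, and 12 and 3 on type b. The probe sets for Rpl27, Rpl34, Rpl39l, Rps4l and Rps7, 1 of 2 for Rpl10a and 1 of 4 for Rpsa exceeded the floor on 0 arrays, and those for Rpl32 and Rpl7 on type b on 2 arrays. Of the 49 members whose name suffix marks probes shared by a family or by several transcripts 47 were tested, against 3 of 10 others, so nearly all values below come from shared probes. Another 24 probe sets carried a ribosomal protein symbol beside other symbols and were not used. Arrays 8a and 9b stood apart from the rest: the 3′ to 5′ signal ratio of the actin control was 2.50 and 2.28 there, against 0.849 to 1.41 on the other 16 arrays, and the spiked BioB control read 3950.1 and 4531, against 965.6 to 2320.4. The annotation names no Nkx2-5 probe set, and the genotype labels were therefore not checked against its level.

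Ribosomal protein signal was higher in nulls than in wild types on type a, where 33 of 35 tested probe sets had a positive log2 fold change, and its size differed between arrays and types. Over all 50 tested members the median log2 fold change was 0.42 for the large and 0.37 for the small subunit, against -0.02 over all 6935 tested probe sets, and 48 of 50 were positive, against 47.0% of all. Without arrays 8a and 9b the medians were 0.21 and 0.20, and without null 2 they were 0.58 and 0.57. By limma with Benjamini-Hochberg adjustment over all tested probe sets, 0 of 50 passed an adjusted p of 0.05, where 0.692% of all tested probe sets passed. At an unadjusted p under 0.05 there were 19 of the 50, against 11.2% of all. On type a all 3 nulls lay above all 3 wild types for 25 of 35 members, 16 of the large and 9 of the small subunit, against 8.16% of all tested type a probe sets. On type b this held for 0 of 15 members, against 6% of all. Without arrays 8a and 9b the counts were 25 of 35 on type a, against 14.9% of all, and 0 of 15 on type b, against 14.3% of all. In whole-tissue RNA more cells with much of a transcript and more transcript per cell cannot be told apart.

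**Figure D1:**
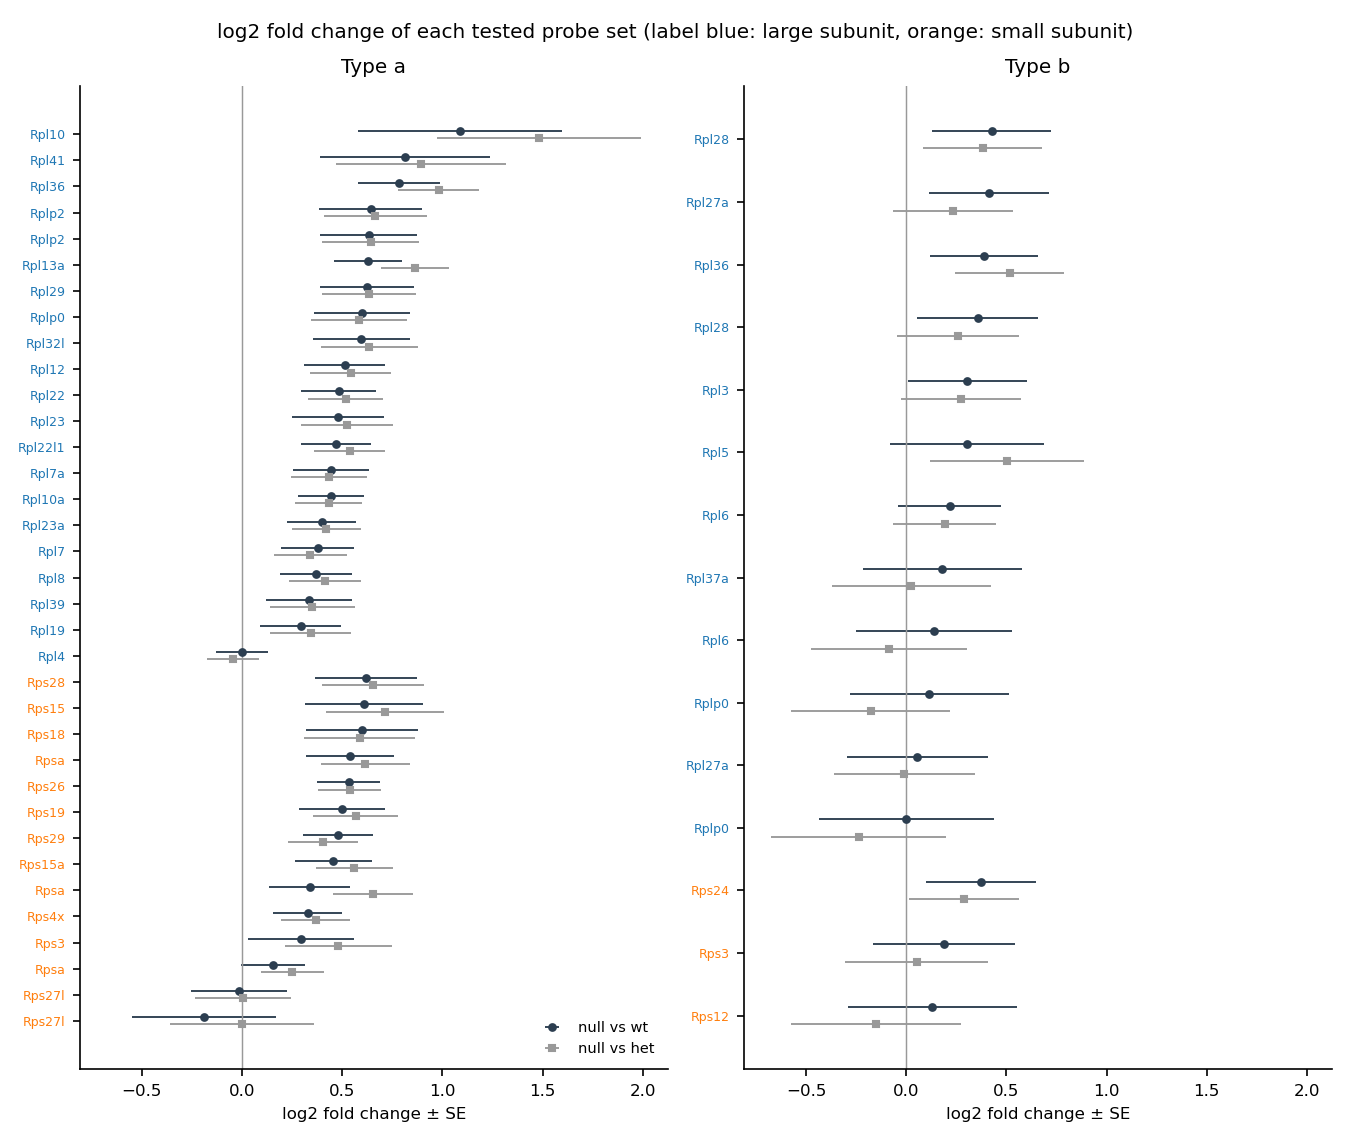
Log2 fold changes (points) with their standard errors (bars) of the 50 tested ribosomal protein probe sets, null against wild type (dark circles) and null against heterozygous (grey squares), type a left and type b right; symbols are blue for the large and orange for the small subunit. Type a values run from -0.19 to 1.48, type b values from -0.24 to 0.52.

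Among large subunit members the smallest p-values belonged to Rpl36 and Rpl13a. Rpl36 on type a read 34308.5, 33233 and 55464 in nulls 2, 6 and 8a, 20613, 19933 and 20039 in heterozygotes and 26838, 22174 and 20878 in wild types. All 3 nulls exceeded every other array, and array 8a was the highest (log2 fold change 0.78, SE 0.204, limma adjusted p = 0.129 for null against wild type). Rpl13a, which also serves as a translational silencer in interferon-treated cells, read 13685, 12526 and 17744 in nulls, 8467, 8913 and 6689.6 in heterozygotes and 9895, 8485 and 9848 in wild types. Its nulls again lay above all other arrays, with means of 14652 ± 2740.0, 8023 ± 1176 and 9409 ± 801 (SD, n = 3 each; log2 fold change 0.63, SE 0.170, limma adjusted p = 0.144). Rpl29 read 35686, 36419 and 67647 in nulls and 31309.5, 29840.2 and 25795 in wild types (log2 fold change 0.62, SE 0.235, limma adjusted p = 0.340). The nulls were all higher, and 8a was the highest.

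The acidic proteins of the ribosomal stalk, which recruit elongation factors, gave like values on type a. Rplp2 has 2 probe sets there, and they read 47451, 52771 and 95349 and 31085.5, 34852 and 69632 in nulls, against 40688, 41538 and 38023 and 27654, 27893 and 25701 in wild types. Their log2 fold changes were 0.63 and 0.64 (limma adjusted p = 0.346 and 0.363), and the genotypes did not overlap at either. Rplp0, the scaffold of the stalk, read 43881, 48946 and 82659 in nulls and 42023, 40249.5 and 30189 in wild types on type a (log2 fold change 0.60, SE 0.241, limma adjusted p = 0.368). Rpl12, at the base of the stalk, read 53586, 46974 and 75759 in nulls and 39309, 44897 and 37187 in wild types (log2 fold change 0.51, SE 0.202, limma adjusted p = 0.352). All these members had null 8a far above nulls 2 and 6.

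Rpl22 and its close relative Rpl22l1 both read higher in every null than in every wild type. Rpl22 gave 29172, 33460.3 and 47273 in nulls and 23986, 27876 and 25294 in wild types (log2 fold change 0.48, SE 0.186, limma adjusted p = 0.346). Rpl22l1 gave 25889, 24203 and 27887 in nulls and 19462, 19065 and 17773.5 in wild types (log2 fold change 0.47, SE 0.175, limma adjusted p = 0.330). The 3 nulls lay close together for Rpl22l1, with an SD of 1844 around 25993. Rpl10a read 35933, 35361 and 46185 in nulls and 26272, 31957 and 27836 in wild types (log2 fold change 0.44, SE 0.165, limma adjusted p = 0.328).

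**Figure D2:**
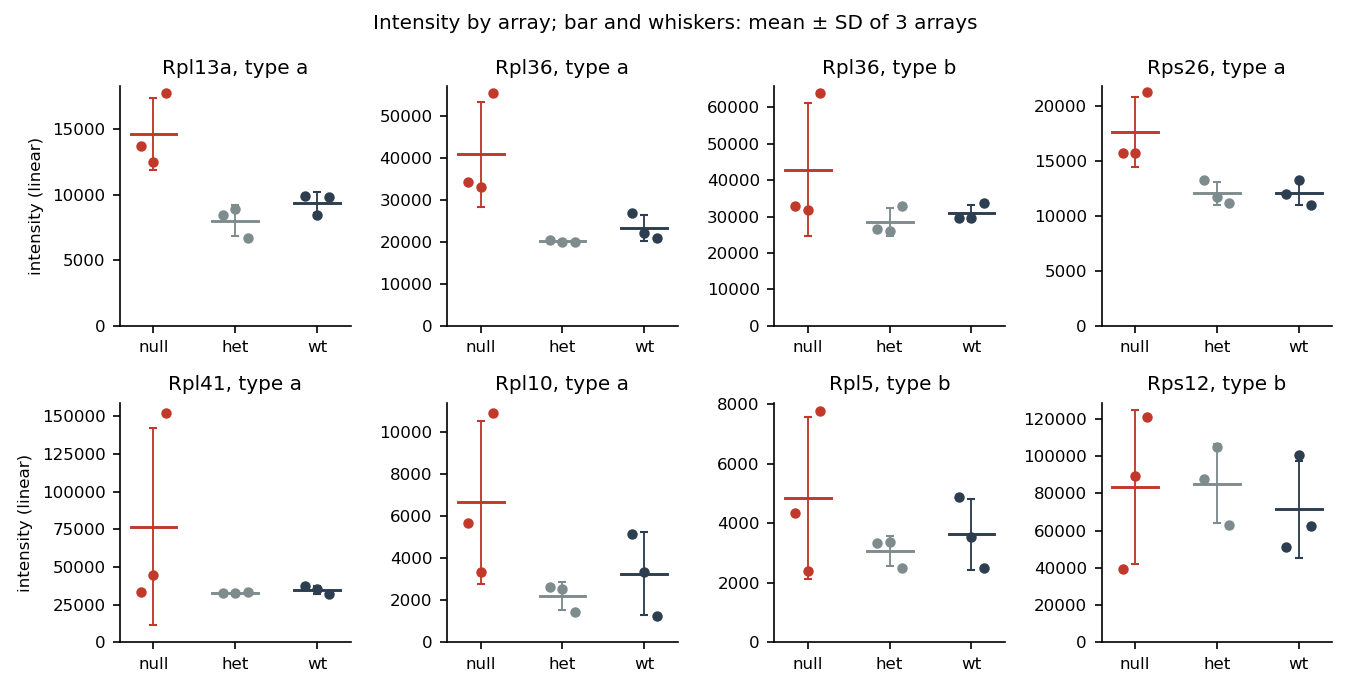
Linear intensity on each array (points) with mean (bar) and SD (whiskers) of 3 arrays per genotype, null left of heterozygous and wild type, each panel with its own axis from 0. The 3 null points lie above all others for Rpl13a, for Rpl36 on type a and for Rps26, while for Rpl36 on type b, Rpl41, Rpl10, Rpl5 and Rps12 the null points overlap those of the wild types.

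In the small subunit Rps26, a protein at the messenger RNA exit and a Diamond-Blackfan anaemia gene in people, had the smallest p. It read 15776, 15782 and 21324 in nulls, 13262, 11711 and 11199 in heterozygotes and 12041, 13268 and 11001 in wild types (log2 fold change 0.53, SE 0.159, limma adjusted p = 0.200). Nulls 2 and 6 were nearly equal and both above the highest other array. Rps29, another Diamond-Blackfan anaemia gene, read 48121, 49282 and 65448 in nulls and 37283, 41691 and 36896 in wild types (log2 fold change 0.48, SE 0.175, limma adjusted p = 0.320). Rps19, the gene most often mutated in that anaemia, read 35657, 37179 and 63450.0 in nulls and 31469, 31010.0 and 30505.5 in wild types (log2 fold change 0.50, SE 0.213, limma adjusted p = 0.412). Rps28, Rps18, Rps15 and Rps15a also had all nulls above all wild types, with log2 fold changes of 0.62, 0.60, 0.61 and 0.46 (limma adjusted p from 0.388 to 0.474). For Rps15, a protein near the decoding centre, the values were 39509.6, 43468 and 101247 in nulls and 37596, 36824 and 35592 in wild types, so null 8a made most of the difference.

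Members with the lowest log2 fold changes had low signal or lay on type b. Rps27l, a relative of Rps27 that p53 induces, read 1989.7, 1908 and 2011 in nulls, 2737, 2886 and 968 in heterozygotes and 1982, 2878 and 1992 in wild types at 1 probe set (log2 fold change -0.19, SE 0.360, limma adjusted p = 0.905). Its other probe set exceeded the floor on 5 of 9 arrays and had a log2 fold change of -0.02, whose sign turned under quantile normalization and median scaling. Rpl4, which lines the peptide exit tunnel, exceeded the floor on 3 of 9 arrays, with 324, 376 and 288 in nulls, 401, 387 and 318 in heterozygotes and 226, 355 and 369 in wild types. With values at the floor it gives no measure of a difference.

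On type b the 3 nulls went apart. Rps12 read 39132, 89067 and 121060.0 in nulls 2, 6 and 9b, 87744.5, 104704 and 62803 in heterozygotes and 51344, 100570.0 and 62226 in wild types (log2 fold change 0.13, SE 0.424, limma adjusted p = 0.943). Null 2 was the lowest and null 9b the highest of the 9 arrays, and wild type 5 stood near null 6. Rpl37a read 41909.5, 87812 and 127871 in nulls and 54004, 95170.0 and 62969 in wild types (log2 fold change 0.18, SE 0.396, limma adjusted p = 0.918). Rpl3, close to the peptidyl transferase centre, read 57492.5, 86494 and 117387 in nulls and 60744, 76436 and 66572 in wild types (log2 fold change 0.31, SE 0.298, limma adjusted p = 0.784). Over the 15 tested type b members array 9b was the highest of 9 for 15 and null 2 the lowest for 11. Over the 35 tested type a members array 8a was the highest of 9 for 30 and null 2 the lowest for 1. The same counts were not made over all tested probe sets, so they do not show a trait particular to the members. The median log2 fold changes of type b were 0.26 for 12 large and 0.19 for 3 small subunit probe sets, against 0.48 for 21 and 0.47 for 14 on type a.

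Genes with several tested probe sets numbered 9, of which Rpl36, Rplp0 and Rps3 had probe sets on both types. Rpl36 on type b read 32815, 31809 and 63846 in nulls, 26535, 26026 and 33009 in heterozygotes and 29736, 29611 and 33644 in wild types, and nulls 2 and 6 lay within the range of the wild types (log2 fold change 0.39, SE 0.270, limma adjusted p = 0.656). Rplp0 on type b read 32941, 71538.5 and 105828 in nulls and 43749, 101030.0 and 56291 in wild types at 1 probe set (log2 fold change 0.00, SE 0.437, limma adjusted p = 0.9998), whose sign turned under quantile and cyclic loess normalization, and 35262, 74076 and 104521 and 43706, 84214 and 58389 at the other (log2 fold change 0.12). So the type a separation of Rplp0 had no match in type b values. Rps3, at the messenger RNA entry, had log2 fold changes of 0.30 on type a and 0.19 on type b, with overlapping genotypes on both.
Within type b, Rpl28 had 0.43 and 0.36, Rpl6 had 0.22 and 0.14, and Rpl27a, a gene whose mutation gives ataxia in mice, had 0.42 and 0.06 at their probe sets, all with overlapping genotypes. Within type a, Rpsa, which also acts as a laminin receptor, had 0.54, 0.34 and 0.16, and its nulls lay above all wild types at the first and second.

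Across the tested members of an array the deviation from the wild-type mean (log2 intensity minus the mean of the 3 wild types) was summarised by its median. On type a it was 0.27, 0.26 and 0.86 in nulls 2, 6 and 8a, 0.04, -0.07 and -0.09 in heterozygotes 3, 4 and 8, and 0.02, 0.07 and -0.12 in wild types 1, 5 and 7. All 3 nulls lay above the 6 other arrays, and positive deviations numbered 32, 32 and 31 of 35 in them. On type b the medians were -0.30, 0.36 and 0.82 in nulls 2, 6 and 9b, 0.23, 0.30 and -0.08 in heterozygotes, and -0.21, 0.18 and -0.06 in wild types. Null 2, above every wild type on type a, was thus below every wild type on type b. The sum of the members' intensities made 7.96%, 8.07% and 11.7% of the summed signal in type a nulls, 6.91%, 6.64% and 6.51% in heterozygotes, and 7.01%, 7.14% and 6.50% in wild types. Type b shares were 4.02%, 6.18% and 7.85% in nulls, 5.73%, 6.10% and 4.94% in heterozygotes, and 4.47%, 6.11% and 5.02% in wild types. The ratio of the large to the small subunit share ranged on type a from 1.69 to 1.79 in nulls, 1.73 to 1.76 in heterozygotes and 1.67 to 1.77 in wild types. On type b it was 3.09 to 3.43 in nulls, 2.96 to 3.45 in heterozygotes and 3.08 to 3.44 in wild types.

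**Figure D3:**
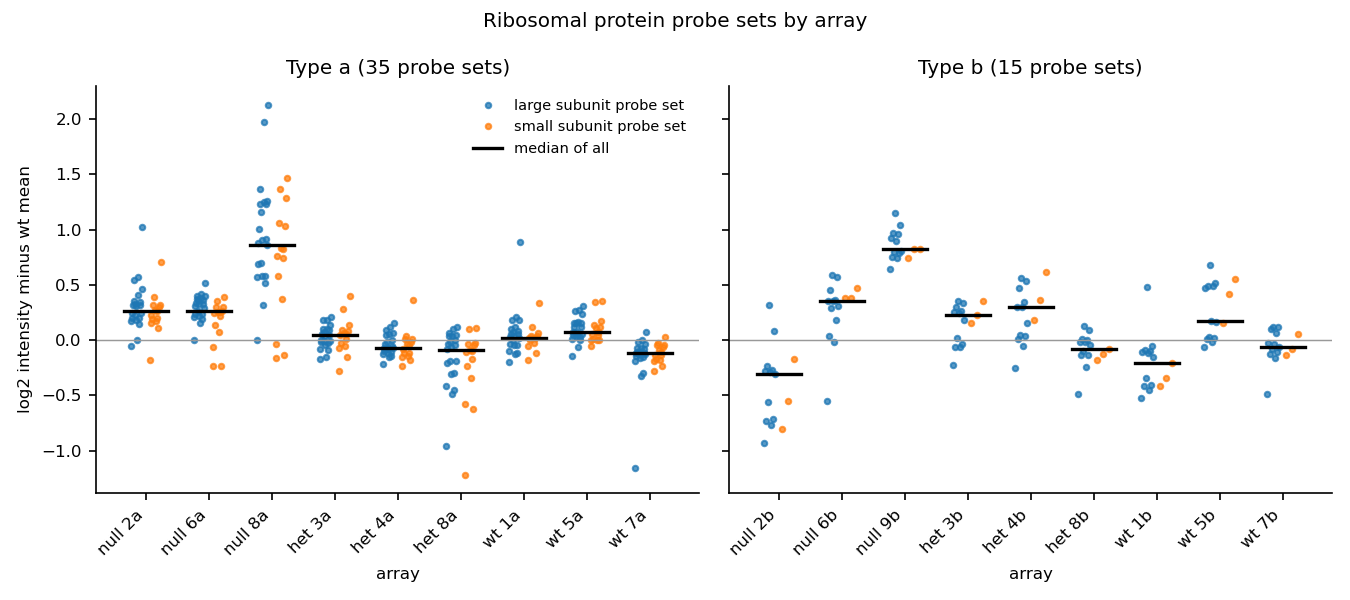
Log2 intensity minus the wild-type mean for each tested ribosomal protein probe set (points; blue large, orange small subunit) on each array, with the median over all members (black bar), type a left and type b right. The 3 null medians on type a (0.27, 0.26 and 0.86) lie above all others, while on type b they run from -0.30 to 0.82.

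High signal is a property these probe sets share: 27 of the 35 tested type a members and 14 of the 15 of type b had a mean intensity over 20000. Among named probe sets of other genes over 20000 (38 of type a, 63 of type b) the median deviation was smaller in size than that of the members on every null, with the same sign. It was 0.16, 0.08 and 0.38 in nulls 2, 6 and 8a of type a, and -0.16, 0.06 and 0.33 in nulls 2, 6 and 9b on type b. In heterozygotes 3, 4 and 8 it was 0.09, 0.01 and -0.02 on type a, and between -0.02 and 0.01 on type b, where heterozygotes 3 and 4 had member medians of 0.23 and 0.30. In wild types 1, 5 and 7 it was 0.06, 0.15 and -0.19 on type a, wider than for the members. On type b it ran from -0.11 to 0.09. Probe sets with means from 5000 to 20000 kept medians from -0.05 to 0.01 on every type a array and from -0.08 to 0.03 on every type b array. The 99th percentile of each array was higher in all type a nulls than on the other type a arrays. It was 34984, 35900.4 and 47280 in nulls, 31073, 29826 and 28100 in heterozygotes, and 30575, 31971 and 27298 in wild types. On type b it was 34243 in null 2, 45476 in null 6 and 58709 in null 9b, against 38373 to 45995 in wild types. Nulls 2 and 9b thus lay outside the wild-type range there, in the direction of their member medians. Null 6 lay inside it, although its member median of 0.36 exceeded those of all wild types. This percentile is not separate from the members, which were 18 of the 65 probe sets in the top 1% of type a. For type b they were 13 of 65. The part of array-wide brightness in the members' shift was not tested.

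**Figure D4:**
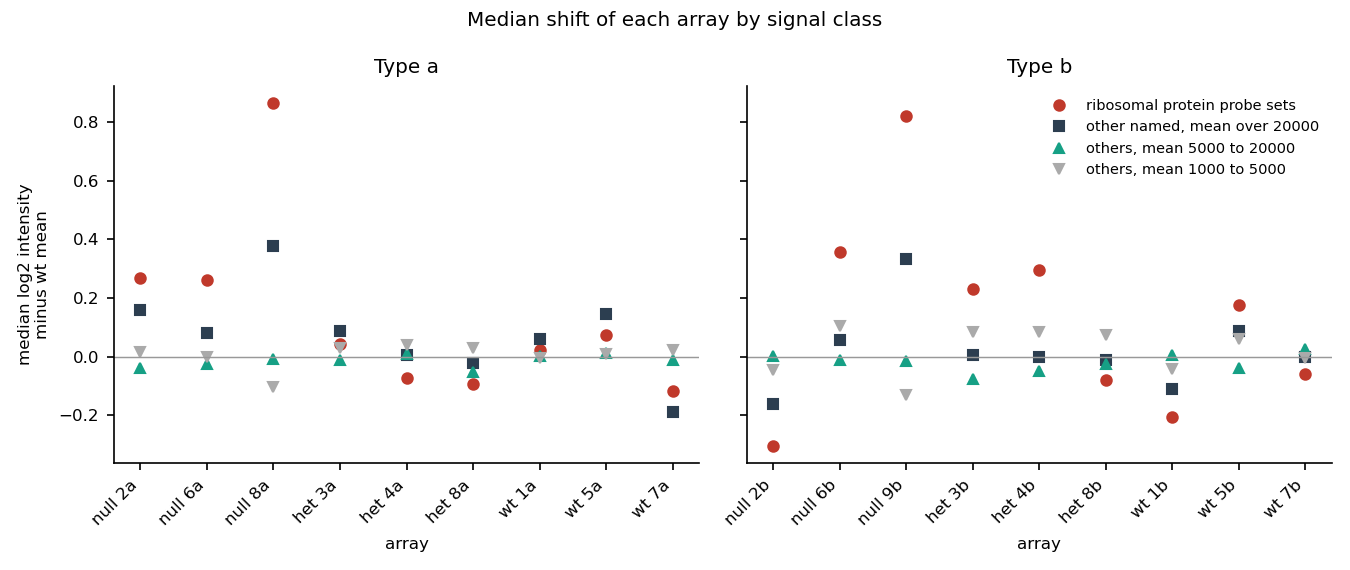
Median log2 intensity minus the wild-type mean on each array for ribosomal protein probe sets (red circles), other named probe sets with a mean over 20000 (dark squares), and the remaining probe sets with means of 5000 to 20000 (green triangles) and 1000 to 5000 (grey triangles). Red and dark points move in the same direction on nulls 2, 8a and 9b, and green points stay near 0.

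The size of the shift differed between scalings. With quantile normalization, which gives every array the same distribution and so removes a difference shared by the brightest probe sets, the median log2 fold change of null against wild type was 0.08 for the large and 0.04 for the small subunit. It was 0.27 and 0.23 with cyclic loess normalization, and 0.45 and 0.41 with median scaling. Under quantile normalization the array medians of type a were 0.09, 0.05 and 0.11 in nulls 2, 6 and 8a, against -0.02 to 0.02 in wild types, and null 2 on type b stood at 0.09. Members whose nulls lay above all wild types then numbered 4 of 35 on type a, against 7.41% of all, and numbered 2 of 15 on type b, against 6.95% of all. Cyclic loess normalization gave 15 of 35 on type a, against 8.84% of all, and median scaling 25 of 35, against 9.45%. Rpl13a kept most of its difference, with a log2 fold change of null against heterozygous of 0.78 under quantile normalization and an adjusted p of 0.0325 by limma. Rpl36 on type a also passed there, with 0.62 and an adjusted p of 0.0339 by limma.

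**Figure D5:**
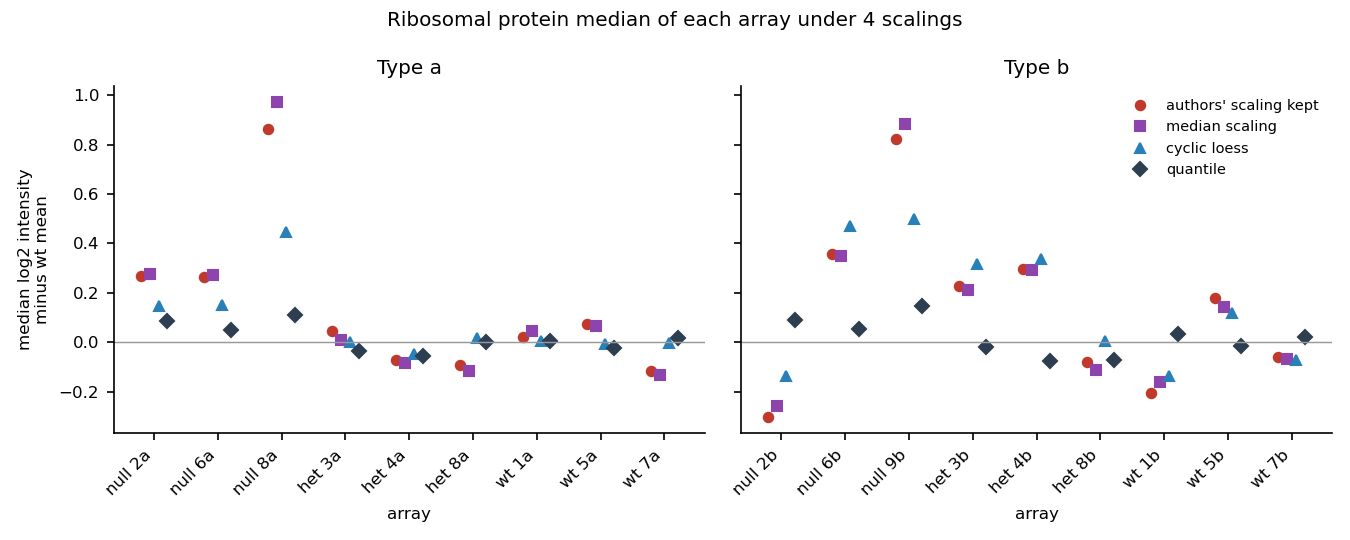
Median log2 intensity minus the wild-type mean of the tested ribosomal protein probe sets on each array under 4 scalings: the authors' scaling (red circles), median scaling (purple squares), cyclic loess (blue triangles) and quantile normalization (dark diamonds). The null 8a and 9b medians of 0.86 and 0.82 come to 0.11 and 0.15 under quantile normalization.

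Set against heterozygotes, 2 of the 50 tested members passed, both higher in nulls, where 1.15% of all tested probe sets passed. Rpl13a had the smallest p (log2 fold change 0.86, SE 0.170, limma adjusted p = 0.0343), and Rpl36 on type a the next (log2 fold change 0.98, SE 0.204, limma adjusted p = 0.0468). At both probe sets the heterozygous mean also lay below the wild-type mean, as the values above show. The Rpl36 probe set of type b gave a log2 fold change of 0.52 (limma adjusted p = 0.389). Without arrays 8a and 9b Rpl13a had 0.72 (limma adjusted p = 0.0561) and Rpl36 had 0.74 (limma adjusted p = 0.0276). Leaving out null 2 or any 1 of the heterozygous or wild-type replicates gave 0 members past the threshold. Fitted without the wild types, neither passed (limma adjusted p = 0.0840 for Rpl13a and 0.0935 for Rpl36). The medians over members were 0.43 for the large and 0.48 for the small subunit, against -0.07 over all tested probe sets. Nulls exceeded all heterozygotes for 30 of 35 members on type a, against 11.3% of all, and for 0 of 15 on type b, against 8.19% of all. Without arrays 8a and 9b these were 31 of 35, against 19.1% of all, and 0 of 15, against 16.7% of all. This comparison and that with wild types share the null arrays.

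No tested member passed in heterozygotes against wild types by limma: 0 of 50 passed, 0 had an unadjusted p under 0.05 against 1.70% of all, and 0% of all tested probe sets passed. The medians were -0.01 for the large and -0.04 for the small subunit, against 0.03 over all, with standard errors of single members from 0.130 to 0.509. Rpl13a had -0.24 (SE 0.170) and the Rpsa probe set named second above had -0.32 (SE 0.201), both with a limma adjusted p of 1. At Rpl36 on type a, Rps15, Rps19 and the same Rpsa probe set all 3 heterozygotes lay below all wild types, 4 of 35 members against 1.99% of all tested type a probe sets. On type b this was 0 of 15, against 3.51% of all.

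A few members varied widely within a genotype. Rpl10, which joins the large subunit late in its assembly, read 5686, 3346 and 10920.4 in nulls, 2629.8, 2529 and 1432 in heterozygotes and 5174, 3359 and 1248.5 in wild types. Wild type 1 lay far above wild type 7, so the largest log2 fold change of any member had a wide error (log2 fold change 1.09, SE 0.509, limma adjusted p = 0.458; against heterozygotes 1.48, limma adjusted p = 0.186). Rpl5, which with Rpl11 and the 5S RNA restrains Mdm2, read 4353, 2384 and 7763 in nulls, 3345, 3376 and 2502 in heterozygotes and 4871, 3534.5 and 2494 in wild types on type b (log2 fold change 0.30, SE 0.385, limma adjusted p = 0.858). Its arrays stood in a like order, with wild type 1 above 5 and 7 and null 2 above null 6. Rpl41, the smallest ribosomal protein, named here after its values were seen, read 33487, 44534 and 151953 in nulls, 32700.3, 32450.3 and 33230.5 in heterozygotes and 37103, 35340.3 and 31790.1 in wild types. Array 8a was far above all others and null 6 above every wild type (log2 fold change 0.81, SE 0.424, limma adjusted p = 0.511), and null 2 lay within the wild types.

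Genes that work with the ribosome were read from lists. Fau, which encodes a ubiquitin-like protein fused to a small subunit protein, read 36268, 37646 and 53944 in nulls, 29022, 23805.5 and 28853 in heterozygotes and 30442, 28096 and 23491 in wild types (log2 fold change 0.62, SE 0.195, limma adjusted p = 0.225 for null against wild type). All its nulls lay above all other arrays. Of 11 tested translation factors and other genes with a pyrimidine tract 0 passed in null against wild type and 10 were positive, with a median of 0.31. Against heterozygotes 1 of the 11 rose, Eif4b, a cofactor of the helicase that unwinds messenger RNA leaders. It read 20432, 22510.5 and 17842 in nulls, 13186, 12682 and 13150.0 in heterozygotes and 12815, 12939.5 and 13077 in wild types (log2 fold change 0.63, limma adjusted p = 0.0486 against heterozygotes and 0.0580 against wild types). Its null 8a was the lowest of the nulls, unlike at Rpl13a and Rpl36.

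Genes of ribosome assembly stood on both sides of 0. Of 36 tested genes of ribosome biogenesis 0 rose and 1 fell in null against wild type, with a median of -0.18 and 14 positive. The gene that fell was Bysl, a factor of small subunit maturation, at 393, 503 and 326 in nulls, 819, 887 and 839.6 in heterozygotes and 1037.5, 1120.1 and 931 in wild types (log2 fold change -1.29, limma adjusted p = 0.0219). Of 30 tested genes of the mitochondrial ribosome 0 rose and 1 fell, with a median of -0.08. That gene was Mrpl20, at 1676, 1926 and 2004 in nulls, 3829, 3714 and 2828 in heterozygotes and 3794, 3573 and 3772 in wild types (log2 fold change -0.99, limma adjusted p = 0.0191 against wild types and 0.0324 against heterozygotes). Among 12 tested regulators of ribosome production, 1 rose and 0 fell: Ddit4, a stress-induced inhibitor of mTOR, read 25899, 20958.5 and 24797 in nulls, 1937, 3020.5 and 3089.7 in heterozygotes and 2618, 2208 and 2219 in wild types on type b (log2 fold change 3.35, limma adjusted p = 3.67e-05). Nulls 2, 6 and 9b lay close together there. Of 4 tested p53 targets 0 passed, with a median of -0.16 and 2 positive. Cdkn1a on type b read 45.5, 99.1 and 50.1 in nulls, all under the floor of 523.1, and 644.7, 744.6 and 905.3 in wild types. Its log2 fold change of -0.53 (limma adjusted p = 0.313) is therefore limited by the floor. On type a its genotypes overlapped. Ccng1 went the other way, at 705.9, 759.7 and 683.8 in nulls and 310.6, 383.1 and 628.7 in wild types (log2 fold change 0.36, limma adjusted p = 0.388).

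In null against wild type no gene of the cell type marker lists passed at the brightest probe set of each gene. The summed intensity of each list is given for type a. The erythroid sum on type a was 77622 to 117342 in nulls, 86760.4 to 94455 in heterozygotes and 72203 to 97961 in wild types, over 6 probe sets for 6 genes, 5 of them tested. Over both types together 7 of 9 erythroid genes were tested, with Gata1 and Epor under the floor. The heart muscle sum was 36367 to 108046 in nulls, 30840.0 to 70544 in heterozygotes and 45779 to 70942 in wild types, over 5 probe sets for 5 genes, all tested, with 8a the highest. The neural sum was 8602 to 22720 in nulls, 21166 to 26111 in heterozygotes and 20243 to 28416 in wild types, over 7 probe sets for 5 genes, all tested. Array 8a was the lowest, and null 6 at 16691 also lay below all heterozygotes and wild types, while null 2 did not. On both types together all 7 tested neural genes had negative log2 fold changes, and Pax6 was under the floor. The liver and visceral endoderm sum was 3024 to 5917 in nulls, 1378 to 3833 in heterozygotes and 976.2 to 3043 in wild types, over 5 probe sets for 5 genes, 4 of them tested. The endothelial sum was 2225 to 3388 in nulls, 1830.2 to 2627 in heterozygotes and 2108 to 2886 in wild types, over 5 probe sets for 4 genes, 2 of them tested, with Pecam1 and Flt1 under the floor. Of 16 tested cell cycle genes 0 passed, and 12 had negative log2 fold changes. Their type a sum was 77136 to 86254 in nulls, 99466.5 to 100835 in heterozygotes and 91362 to 103903 in wild types. All type a nulls thus lay below all other arrays, while on type b wild type 1, at 56733, lay below every null. Past the threshold in these lists were a dimmer Apoe probe set (limma adjusted p = 0.0313), at 967.6, 1360.2 and 3904 in nulls and under 0 on all heterozygous and wild-type arrays, so no fold is given, a dimmer Rrm2 probe set, lower in nulls (-0.94, limma adjusted p = 0.0190), and Hes5, lower in nulls than in heterozygotes (-1.26, limma adjusted p = 0.0335). The part of cell makeup in the members' values was not tested.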

How the data were processed

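Intensity per probe set, as deposited by the authors, was used from 18 arrays, and how it was made (software, background correction, scaling) is not given in the sources used here. The deposited intensity holds negative values, so background had been subtracted, and means trimmed by 2% were alike between arrays of a type, so the authors' scaling was kept. Depth has no meaning here, and 3 arrays per genotype limit the precision. On each type 61 control probe sets were left out. Of 13057 probe sets 7542 had 1 symbol in the platform annotation, 224 several and 5291 none. Before controls were left out, 5560 probe sets of type a and 2001 of type b had 1 symbol. RefSeq held the gene identifier of 5551 and 1993 of these probe sets.

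Values were raised to a floor of 2 noise SDs of the negative values and log2 transformed. Each type was fitted over its 9 arrays with limma 3.58.1 in R 4.3.3 (lmFit, eBayes with an intensity trend, two-sided), with Benjamini-Hochberg adjustment over the 6935 tested probe sets of both types. Array heterozygous 8 of type b lacks 499 values and was left out of those fits. The steps were tested on simulated data. The members and all gene lists were chosen with earlier results of these data known.

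Named per subunit were the 8 members of smallest p and 3 of lowest log2 fold change in null against wild type, the 4 of smallest p in the other comparisons, members past the threshold, members with several probe sets and members with known roles; of other lists, Fau and genes past the threshold. Rpl7a and Rpl28 are shown among the sequences, and Rpl41, Rpl3, Rpl37a, Cdkn1a and Ccng1 among the values, as examples chosen after the values were seen. Alternatives were quantile, cyclic loess and median scaling, other floors and filters, no trend, only the genotypes compared, adjustment within a type, arrays split by high or low Afp signal as a block, 1 probe set or the average per gene, and leaving out each replicate. Each type alone, and the counts of non-overlapping groups under other scalings and without arrays 8a and 9b, were added after seeing the data.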

Additional observations from a re-analysis of the deposited data

How the results depend on the processing

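In null against wild type, 0 members passed under every alternative run, and the medians stayed positive under all of them. The number of members tested differed between runs that changed the filter or took 1 value per gene. Quantile normalization brought the medians down to 0.080 for the large and 0.045 for the small subunit in null against wild type, and to 0.103 and 0.120 in null against heterozygous, where cyclic loess gave 0.181 for the large subunit. In null against heterozygous 1 member passed with median scaling, the floor halved, Afp as a block or the brightest probe set per gene, and 0 with no filter, only 2 genotypes or no intensity trend. Leaving out 1 replicate gave 0 members there for null 2 and for each heterozygous and wild-type replicate, 1 without 8a and 9b and 2 without null 6, and small subunit medians of 0.262 (without 8a and 9b) to 0.578. Type b alone had a small subunit median of 0.053. Members with nulls above all wild types on type a numbered 15 of 35 with cyclic loess and 4 of 35 with quantile normalization. The shares over all tested type a probe sets were 8.84% and 7.41%. Set against heterozygotes they numbered 13 and 8 of 35, beside 12.5% and 11.7% of all. On type b they numbered 1 and 2 of 15 against wild types, beside 7.15% and 6.95% of all. With quantile normalization they numbered 5 of 15 against heterozygotes, beside 12.2% of all.

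Signs turned in these members. In null against wild type, Rplp0 on type b had -0.15 with quantile and -0.0094 with cyclic loess normalization and -0.37 to 0.47 over replicates left out. Rpl27a had -0.0201 with quantile normalization and -0.29 to 0.36 over replicates left out, and Rps12 had -0.0206 and -0.21 to 0.60. Rps27l had 0.04 with quantile normalization, 0.0193 with median scaling and 0.0678 with the floor halved, and -0.18 to 0.16 over replicates left out. In heterozygous against wild type, leaving out replicates gave -0.98 to 0.0497 for Rpl10 and -0.32 to 0.0093 for Rps3. The cause was not tested. No paired analysis was possible because the genotypes share at most 1 replicate number.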
